A study of Homo sapiens with 24 samples.

Results

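The 10 genes described here belong to the KMT2A fusion program and to leukemic self-renewal: HOXA7, HOXA9, HOXA10, MEIS1, PBX3, MEF2C, FLT3, MYB, MYC and CDK6. They were taken by symbol from the deposited count table, and 10 of its 58735 genes matched, 1 row each. The libraries hold polyadenylated RNA of MOLM-13 or THP-1, both human acute myeloid leukemia lines with the KMT2A-MLLT3 (MLL-AF9) fusion. In each line the groups were vehicle (PBS and DMSO), LAA (L-ascorbic acid, vitamin C, 250 µM in PBS), olaparib (which inhibits PARP enzymes, 1 µM in DMSO) and LAA+olaparib, all for 72 h. The question in the design text is which genes each treatment changes against vehicle in these lines. Each of the 8 groups held 3 libraries, 24 in all. The labels do not say whether replicates were separate cultures, so each p-value reflects the spread between libraries alone, which may be technical.

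In KMT2A-rearranged leukemia the N-terminal part of the KMT2A histone methyltransferase is joined to a partner such as MLLT3, which brings elongation factors and DOT1L to chromatin. The posterior HOXA genes and MEIS1 are the best known targets, and their products bind DNA together with PBX proteins. MEF2C, MYB, MYC, the receptor tyrosine kinase FLT3 and the cell cycle kinase CDK6 are further genes on which proliferation or self-renewal of these cells is known to depend.

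Total counts per library ran from 18666259 to 25265870, and mitochondrially encoded genes took 6.63 to 11.02% of them. All 10 markers of monocytic leukemia cells, among them CD33, SPI1 and LYZ, exceeded 1 CPM (counts divided by the scaled library total) in every group, with summed levels of 1301 to 1666 CPM. Summed markers of T and NK cells were 6.0 to 23.5 CPM, of B cells 13.1 to 21.6 CPM, of erythroid cells and megakaryocytes at most 2.10 CPM, and of epithelial cells and fibroblasts at most 3.48 CPM. Of the B cell markers PAX5 was called higher with LAA+olaparib in THP-1, at 13.2 CPM against 6.23 in vehicle (edgeR adjusted p = 3e-05), and the part of this in the THP-1 results was not tested. The line labels were set against 15 genes nearly silent in the THP-1 libraries, a list chosen after values of these data had been seen. Their summed level was 31.8 ± 0.85 CPM (SD, n = 3) in MOLM-13 vehicle, 19.2 ± 1.33 after olaparib, 5.33 ± 0.47 after LAA and 4.09 ± 1.03 after LAA+olaparib, against group means of at most 0.361 in THP-1. EMD and MTAP, which most cells express, had 324 and 142 counts over the 3 MOLM-13 vehicle libraries and 0 over all 12 THP-1 libraries; 1 gene of the list, SLC26A5, had 12 counts in THP-1 and 1 in MOLM-13 vehicle. In the libraries labelled MOLM-13 the summed level was 5.97-fold lower than vehicle with LAA, 1.66-fold with olaparib and 7.77-fold with both. EMD and MTAP were low even in MOLM-13 vehicle, at 4.70 and 2.11 CPM, and after LAA they were at 0.781 and 0.266. Whether the libraries labelled MOLM-13 hold RNA of that line alone was not tested. Every MOLM-13 value, and every difference or likeness between the lines below, is therefore that of libraries so labelled. The part of this shift in the MOLM-13 results was not tested either, and THP-1 was fitted on its own.

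The promoters of 4 of the genes are shown because they carry the main differences below: FLT3 and MEIS1, which separate the lines, HOXA9, which stays close between them, and CDK6, the 1 member that rose against vehicle. The sequences are the 250 bases before a RefSeq start (build GRCh38.p14), 5′ to 3′ on the gene's strand. Capitals mark CG dinucleotides, the sites at which cytosine is methylated and at which TET enzymes, for which ascorbate is a cofactor, oxidize it.
FLT3, chr13:28100577-28100826, minus strand: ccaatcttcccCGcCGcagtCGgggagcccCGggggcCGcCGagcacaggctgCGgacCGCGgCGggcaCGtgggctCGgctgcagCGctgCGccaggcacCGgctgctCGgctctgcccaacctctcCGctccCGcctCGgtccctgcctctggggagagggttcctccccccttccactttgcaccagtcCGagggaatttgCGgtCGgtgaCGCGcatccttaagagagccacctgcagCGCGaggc
MEIS1, chr2:66434875-66435124, plus strand: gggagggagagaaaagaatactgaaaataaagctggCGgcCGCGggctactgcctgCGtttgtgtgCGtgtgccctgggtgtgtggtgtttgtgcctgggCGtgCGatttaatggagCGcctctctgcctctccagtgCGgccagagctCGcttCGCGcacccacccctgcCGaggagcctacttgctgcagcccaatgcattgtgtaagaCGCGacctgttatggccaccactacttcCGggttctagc
HOXA9, chr7:27165538-27165787, minus strand: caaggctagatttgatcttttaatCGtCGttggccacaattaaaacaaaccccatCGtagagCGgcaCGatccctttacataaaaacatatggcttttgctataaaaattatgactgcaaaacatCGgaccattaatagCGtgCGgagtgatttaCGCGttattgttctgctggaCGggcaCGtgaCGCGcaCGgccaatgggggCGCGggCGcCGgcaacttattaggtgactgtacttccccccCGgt
CDK6, chr7:92836574-92836823, minus strand: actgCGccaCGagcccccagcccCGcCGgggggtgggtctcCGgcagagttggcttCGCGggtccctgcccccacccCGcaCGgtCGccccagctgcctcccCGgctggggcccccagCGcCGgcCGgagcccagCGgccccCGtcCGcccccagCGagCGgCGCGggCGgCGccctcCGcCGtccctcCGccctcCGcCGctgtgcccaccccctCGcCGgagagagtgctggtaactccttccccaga
FLT3 has 26 CG dinucleotides in this window, MEIS1 16, HOXA9 20 and CDK6 30. Among 35116 RefSeq windows of the same length the median was 11 and the quartiles 3 and 23. The E-box CACGTG, a sequence that reads the same on both strands and that MYC and MAX can bind, is in the windows of FLT3 and HOXA9 and in 6.34% of all windows. Windows were found for 9 of the 10 genes, 17 in all, and 2 of the 17 hold this E-box. The sequence TGACAG, which MEIS proteins can bind (either strand), is in the PBX3 window and in 3 of the 7 MEF2C windows, against 13% of all windows. A match is a description of the letters, and methylation was not measured here.

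In the vehicle libraries 8 members were not called between the lines, and FLT3 and MEIS1 stood apart. On the per-length scale (FPKM, fragments scaled to gene length and library size), MYC and MYB were highest in both lines. MYC was at 64.6 ± 2.80 and MYB at 64.5 ± 3.08 FPKM in MOLM-13 vehicle, and at 65.8 ± 2.51 and 63.1 ± 2.95 in THP-1 vehicle (SD, n = 3); these neighbours overlapped in both lines. PBX3 followed at 29.5 ± 0.56 and 32.0 ± 1.85 FPKM, then CDK6 at 20.5 ± 1.81 and 21.9 ± 1.08, and HOXA9 with HOXA10 between 17.9 and 19.1. HOXA9 and HOXA10 overlapped each other in both lines, and CDK6 and HOXA9 overlapped in MOLM-13. MEF2C lay at 14.1 ± 1.13 and 15.04 ± 0.45 FPKM. FLT3 came next, at 8.57 ± 0.47 FPKM in MOLM-13 and 2.20 ± 0.09 in THP-1. HOXA7 and MEIS1 were lowest, with HOXA7 at 0.282 ± 0.07 and 0.377 ± 0.18 FPKM, and MEIS1 at 0.335 ± 0.09 in MOLM-13 and 0.0115 ± 0.0069 in THP-1. The top of the order changed in 4 groups: after LAA and after LAA+olaparib, in both lines, every library had more MYB than any library of its group had MYC.

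**Figure D1:**
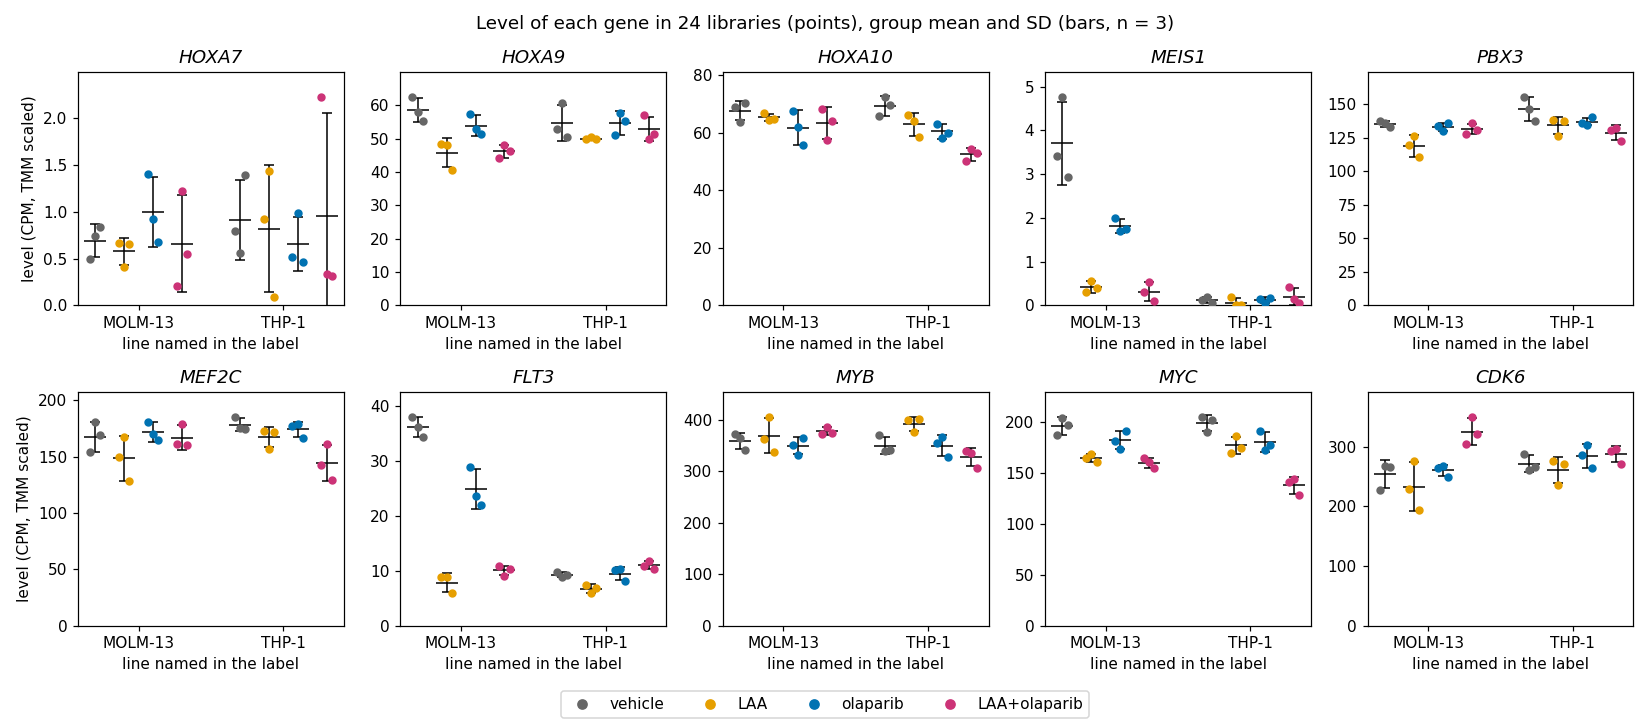
Level of each of the 10 genes (CPM with TMM scaling, axis from 0) in each library (points) with the group mean and SD (bars, n = 3), by the line in the label and treatment. FLT3 and MEIS1 were high in MOLM-13 vehicle (means 36.1 and 3.71 CPM), and the other 8 genes were not called between the vehicle groups.

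FLT3 encodes the receptor for FLT3 ligand, and MOLM-13 is known to carry an internal tandem duplication in it. Levels here and below are CPM. FLT3 was at 37.9, 36.2 and 34.2 in the 3 MOLM-13 vehicle libraries and at 9.68, 8.85 and 9.21 in those of THP-1. No library of one group reached the other. THP-1 was 3.89-fold lower in vehicle, a log2 difference of -1.96 ± 0.14 (SE; edgeR adjusted p = 1.06e-11). MEIS1, the homeodomain cofactor that HOXA9 binds with, was at 3.41, 4.77 and 2.94 CPM in MOLM-13 vehicle and at 0.126, 0.203 and 0.0515 in THP-1 vehicle, where these were 3, 4 and 1 counts. Its log2 difference was -4.79 ± 0.66. These were the 2 of 10 members called between the vehicle groups, where 4.48% of 17089 genes tested were called and 1.99% were lower in THP-1. In the other 8 the log2 differences lay between -0.09 and 0.41, the last for HOXA7, whose 95% interval ran from -1.01 to 1.83. MEIS1 had passed the filter on low counts through the MOLM-13 libraries alone, so its call between the lines is not read as a test.

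In the libraries labelled MOLM-13, FLT3 fell most steeply with LAA. It was at 8.86, 8.75 and 5.87 CPM after LAA, 28.9, 23.5 and 22.0 after olaparib, and 10.8, 9.06 and 10.2 after LAA+olaparib. All 9 treated libraries lay below all 3 vehicle libraries, and the LAA and LAA+olaparib libraries lay within the range of the 12 THP-1 libraries (5.84 to 11.8). Against vehicle the fall was 4.60-fold with LAA (log2 -2.20 ± 0.14, edgeR adjusted p = 2.68e-08) and 3.59-fold with LAA+olaparib (log2 -1.85 ± 0.14, edgeR adjusted p = 3.43e-08). With olaparib alone the log2 difference was -0.53 ± 0.13 and was not called (edgeR adjusted p = 0.261). LAA+olaparib was 2.49-fold below olaparib (log2 -1.32 ± 0.14, edgeR adjusted p = 3.85e-06) and at log2 0.36 ± 0.15 against LAA (edgeR adjusted p = 0.118). These comparisons share libraries, so they are not separate observations.

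MEIS1 was also lower after treatment. It was at 0.307, 0.569 and 0.394 CPM after LAA, at 2.00, 1.69 and 1.75 after olaparib, and at 0.310, 0.531 and 0.0994 after LAA+olaparib, from counts of 2 to 39 per library. No treated library reached a vehicle library. It fell 8.58-fold with LAA (log2 -3.10 ± 0.41, edgeR adjusted p = 0.000301) and 11.2-fold with LAA+olaparib (log2 -3.49 ± 0.42, edgeR adjusted p = 1.32e-05). Olaparib gave a log2 difference of -1.01 ± 0.35 that was not called (edgeR adjusted p = 0.512), and LAA+olaparib was 5.57-fold below olaparib (edgeR adjusted p = 0.00111). MEIS1 passed the filter on low counts through the vehicle and olaparib libraries, where it was higher. Its calls with LAA and with LAA+olaparib are therefore not read as tests.

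The line-check level moved with both genes. As a ratio of group means, FLT3 was 4.62-fold, 1.46-fold and 3.60-fold lower than vehicle with LAA, olaparib and both; MEIS1 was 8.75-fold, 2.04-fold and 11.8-fold lower; and the line-check sum was 5.97-fold, 1.66-fold and 7.77-fold lower. Per CPM of the line-check sum, FLT3 above the THP-1 mean of the same treatment was 0.846 ± 0.055 in vehicle and 0.800 ± 0.166 with olaparib (SD, n = 3). It was 0.226 ± 0.322 with LAA and -0.275 ± 0.290 with LAA+olaparib, where the FLT3 level itself lay near THP-1. For MEIS1 this ratio was 0.112 ± 0.027, 0.0882 ± 0.0054, 0.0689 ± 0.032 and 0.0315 ± 0.065 in the same order. A lower level per cell and fewer cells with the transcript cannot be told apart in these bulk libraries. Of the 14 line-check genes tested, 7 were called lower with LAA, where 1.08% of all genes were, and 12 with LAA+olaparib, where 7.35% were. The list was chosen after values of these data had been seen, so these counts are not read as a test.

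**Figure D2:**
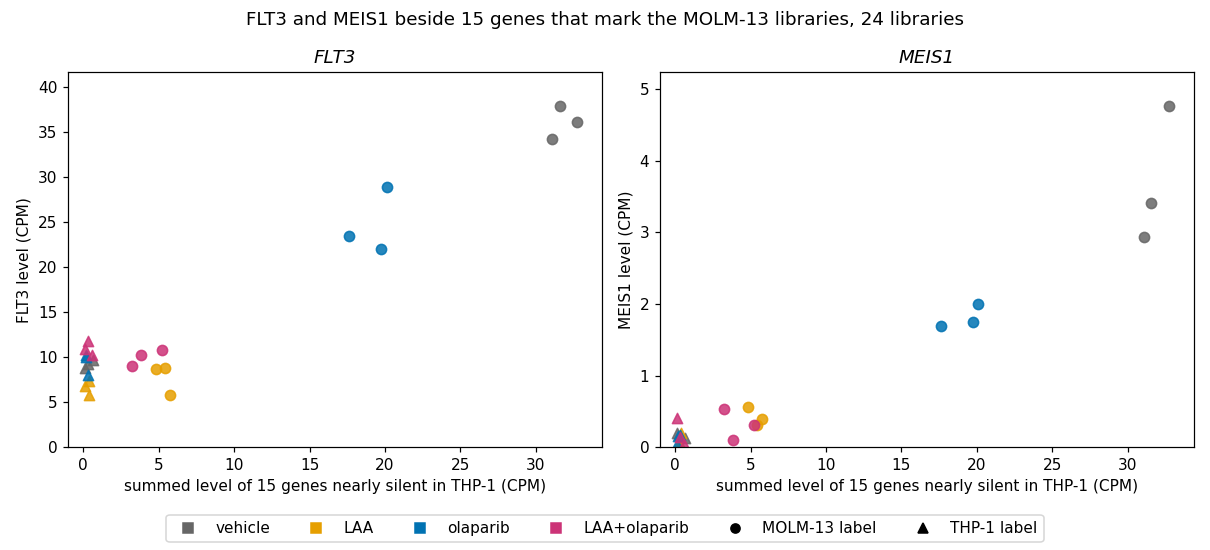
FLT3 and MEIS1 levels (CPM) against the summed level of 15 genes nearly silent in THP-1 (CPM), 24 libraries, coloured by treatment, circles MOLM-13 and triangles THP-1 by label. Both genes were highest in MOLM-13 vehicle, intermediate after olaparib (means 24.8 and 1.81 CPM) and lowest where the sum was near 5 CPM or less.

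In THP-1 both genes stayed low. FLT3 was at 7.41, 5.84 and 6.84 CPM after LAA, 10.1, 10.3 and 8.03 after olaparib, and 10.9, 11.8 and 10.3 after LAA+olaparib. The LAA libraries lay below every other THP-1 library. Against LAA, LAA+olaparib was 1.65-fold higher (log2 0.72 ± 0.15, edgeR adjusted p = 0.000692); against vehicle LAA gave -0.47 ± 0.15 (edgeR adjusted p = 0.135) and LAA+olaparib gave 0.25 ± 0.14 (edgeR adjusted p = 0.203). MEIS1 had 0 to 9 counts in each of the 12 libraries, did not pass the filter on low counts in THP-1 and was not tested there.

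The effect of treatment on FLT3 differed between the lines. The LAA effect was 1.74 ± 0.20 log2 units less negative in THP-1 (edgeR adjusted p = 1.06e-05), the 1 member called among 10 where 0.14% of all genes were called, 0.129% in that direction. For LAA+olaparib the difference was 2.11 ± 0.19 (edgeR adjusted p = 4.07e-08), where 2.13% of genes were called, 1.53% in that direction. MEIS1 entered this fit through the MOLM-13 libraries alone, and with 0 to 9 counts in each THP-1 library its difference between the lines is not read as a test. For the olaparib effect 0 members were called by edgeR or DESeq2, with 1 (FLT3) at an unadjusted p under 0.05, where 0.00585% of all genes were called. After LAA, FLT3 no longer separated the lines (log2 -0.22 ± 0.15, edgeR adjusted p = 0.536), and no member was called there by edgeR or DESeq2, with 3 (MEIS1, PBX3 and MEF2C) at an unadjusted p under 0.05, where 3.39% of all genes were called. In olaparib FLT3 was again lower in THP-1, at -1.40 ± 0.14 on the log2 scale (edgeR adjusted p = 1.48e-08). MEIS1 was at -3.80 ± 0.67, which for the reason above is not read as a test. The fit called both, 2 of 10 members where 4.81% of genes were called, 2.07% lower. In LAA+olaparib HOXA10 and MYC were called lower in THP-1 instead, by -0.25 and -0.20 on the log2 scale (edgeR adjusted p = 0.0329 and 0.0405), 2 of 10 where 13% of genes were called, 5.22% lower. HOXA10 lost that call without replicate 1 or 3 of LAA+olaparib in either line (-0.27 to -0.19, edgeR adjusted p = 0.0668 to 0.164). MYC lost it without any of the 3 MOLM-13 LAA+olaparib replicates or without THP-1 LAA+olaparib replicate 1 or 3 (-0.22 to -0.16, edgeR adjusted p = 0.0513 to 0.191).

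Among the other members, the changes against vehicle were smaller than 1.5-fold. HOXA9, the homeodomain factor at the centre of the program, was at 62.5, 58.1 and 55.1 CPM in MOLM-13 vehicle, 48.4, 48.1 and 40.7 after LAA, and 44.1, 48.1 and 46.3 after LAA+olaparib. The treated libraries lay below all vehicle libraries. HOXA9 fell 1.27-fold with LAA (log2 -0.35 ± 0.09, edgeR adjusted p = 0.0498) and 1.26-fold with LAA+olaparib (log2 -0.34 ± 0.09, edgeR adjusted p = 0.0159). The call with LAA was lost when any of 10 of the 12 MOLM-13 libraries was left out, all but LAA replicate 2 and olaparib replicate 3 (-0.39 to -0.27, edgeR adjusted p = 0.0678 to 0.17). It was also lost with DESeq2 size factors or total-count scaling in edgeR and with limma on FPKM at either pseudocount (-0.36 to -0.33, adjusted p = 0.0517 to 0.117). The call with LAA+olaparib was lost without vehicle replicate 1 or without LAA+olaparib replicate 1 or 3 (-0.34 to -0.29, edgeR adjusted p = 0.0595 to 0.0828), and with total-count scaling (-0.28, edgeR adjusted p = 0.0602). In THP-1 HOXA9 was not called, with group means of 50.0 to 54.7 CPM. HOXA9 shares part of its gene model with HOXA10 on the same strand, so reads in that part are uncertain for both.

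HOXA10, a second posterior HOXA factor, was at 65.8, 72.6 and 69.9 CPM in THP-1 vehicle and at 50.2, 54.5 and 53.1 after LAA+olaparib. The groups did not overlap, and the fall was 1.31-fold (log2 -0.39 ± 0.07, edgeR adjusted p = 0.000211). In MOLM-13 its means lay between 61.8 and 67.7 CPM and it was not called. HOXA7, the third HOXA member, was near the detection limit, with 2 to 48 counts per library and overlapping groups throughout.

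PBX3, a cofactor of HOX proteins, was at 155, 146 and 138 CPM in THP-1 vehicle and at 131, 133 and 123 after LAA+olaparib, 1.13-fold lower (log2 -0.18 ± 0.06, edgeR adjusted p = 0.0366). The groups did not overlap. Leaving out vehicle replicate 1 or 2, LAA replicate 3 or any of the 3 LAA+olaparib replicates of THP-1 ended this call (-0.19 to -0.13, edgeR adjusted p = 0.0518 to 0.216). So did total-count scaling or no filter in edgeR and limma on FPKM at either pseudocount (-0.19 to -0.14, adjusted p = 0.0528 to 0.109). MEF2C, a MADS-box factor of myeloid progenitors, was at 185, 176 and 175 CPM in THP-1 vehicle and at 143, 161 and 129 after LAA+olaparib. No library overlapped between these groups, and it fell 1.23-fold (log2 -0.30 ± 0.07, edgeR adjusted p = 0.00156). In MOLM-13 neither gene was called, with PBX3 means of 119 to 135 CPM and MEF2C means of 148 to 172 CPM.

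MYC, the proliferation-promoting basic helix-loop-helix factor, fell with LAA+olaparib in both lines. In THP-1 it was at 205, 190.4 and 202 CPM in vehicle, 170.2, 187 and 175 after LAA, 191, 173 and 178 after olaparib, and 142, 144 and 129 after LAA+olaparib. The LAA+olaparib libraries lay below all other THP-1 libraries. The fall was 1.44-fold against vehicle (log2 -0.52 ± 0.06, edgeR adjusted p = 4e-07), 1.27-fold against LAA (edgeR adjusted p = 0.000178) and 1.30-fold against olaparib (edgeR adjusted p = 5.93e-05). In MOLM-13 it was at 187, 204 and 198 CPM in vehicle and at 165, 161 and 155 after LAA+olaparib. These groups did not overlap either, and the fall was 1.22-fold (log2 -0.29 ± 0.07, edgeR adjusted p = 0.00858); without LAA+olaparib replicate 3 it was -0.27 (edgeR adjusted p = 0.0608). The effect in THP-1 minus that in MOLM-13 was -0.22 ± 0.09 and was not called (edgeR adjusted p = 0.209).

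MYB, a factor of progenitor self-renewal, had the highest CPM of the 10 members, with group means of 327 to 392. In THP-1 it was at 399, 376 and 401 CPM after LAA and at 339.6, 335 and 307 after LAA+olaparib. These groups did not overlap, and LAA+olaparib was 1.19-fold lower (log2 -0.25 ± 0.06, edgeR adjusted p = 0.0033). Against vehicle it was not called in either line. CDK6, which with D-type cyclins phosphorylates RB1, was at 228, 268 and 267 CPM in MOLM-13 vehicle and at 305, 349.9 and 321 after LAA+olaparib. It was the 1 member that rose against vehicle, 1.28-fold (log2 0.36 ± 0.10, edgeR adjusted p = 0.0232), with no overlap. That call was lost without vehicle replicate 1 or without LAA+olaparib replicate 2 or 3 (0.29 to 0.37, edgeR adjusted p = 0.0647 to 0.127), and with limma on FPKM at either pseudocount (0.35 and 0.36, limma adjusted p = 0.0661 and 0.1). Against LAA, where its libraries were at 229, 275 and 194 CPM, the rise was 1.39-fold (log2 0.48 ± 0.10, edgeR adjusted p = 0.00355). In THP-1 CDK6 means were 261 to 288 CPM and no difference was called.

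**Figure D3:**
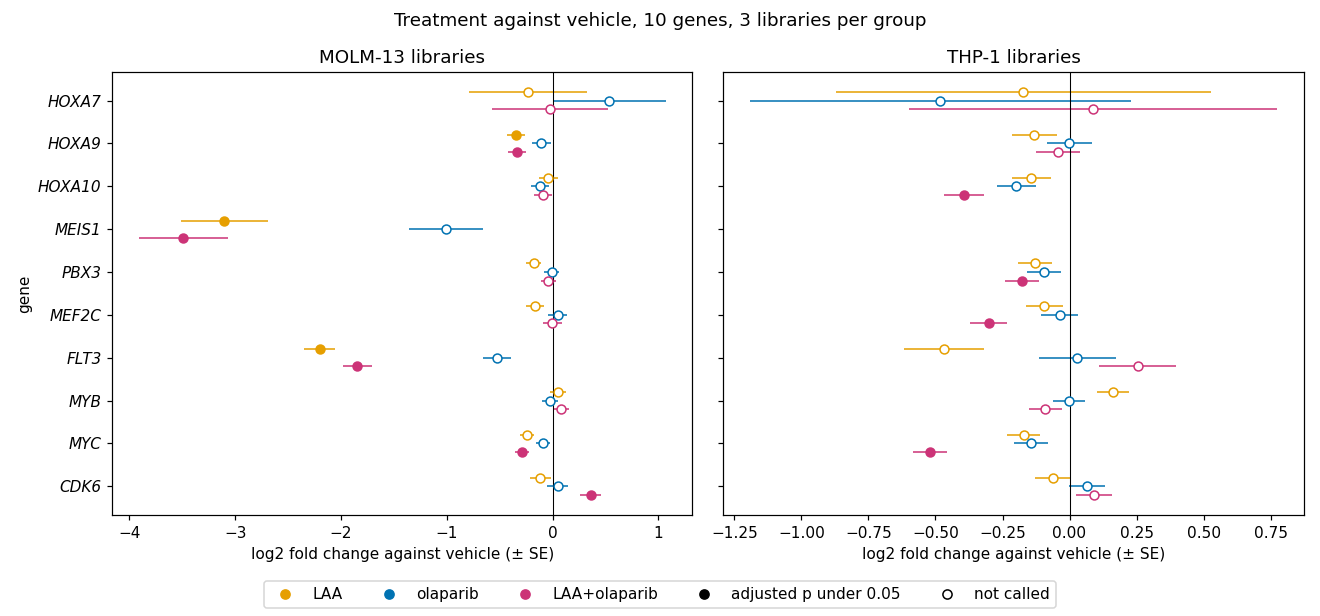
Log2 fold change of each gene against vehicle (± SE) with LAA, olaparib and LAA+olaparib in each line, 3 libraries per group; filled points have an edgeR adjusted p under 0.05, MEIS1 was not tested in THP-1, and the horizontal scales differ. MEIS1 and FLT3 fell furthest in MOLM-13 (-3.49 and -1.85 with LAA+olaparib), and MYC in THP-1 (-0.52). The MEIS1 calls in MOLM-13 are not read as tests.

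Counted over members, 3 of 10 fell with LAA in MOLM-13, where 1.88% of 16160 genes were called and 1.08% fell. With LAA+olaparib 4 fell and 1 rose, where 12.2% of genes were called, 7.35% lower and 4.85% higher. These 5 calls became 3 without vehicle replicate 1 (MEIS1, FLT3 and MYC) and 2 without LAA+olaparib replicate 3 (MEIS1 and FLT3). With olaparib alone 0 members were called by edgeR or DESeq2, with 2 (MEIS1 and FLT3) at an unadjusted p under 0.05; 0.00619% of genes were called. LAA+olaparib against LAA gave 1 member of 10, which rose (14.9% of genes called, 6.68% higher), and against olaparib 2 of 10, which fell (7.48% of genes called, 4.59% lower). MEIS1 is among the members counted as falling with LAA, with LAA+olaparib and against olaparib. For the reason given above its calls are not read as tests. In THP-1, where 9 members were tested, LAA gave 0 by edgeR or DESeq2, with 3 (FLT3, MYB and MYC) at an unadjusted p under 0.05 and 1.49% of genes called. Olaparib gave 0 by either tool, with 2 (HOXA10 and MYC) at an unadjusted p under 0.05 and 0.269% of genes called. LAA+olaparib lowered 4 of 9, where 27.1% of 16331 genes were called, 13.5% lower. Against LAA 4 fell and 1 rose (20.3% of genes called, 10.2% lower and 10.1% higher): HOXA10, MEF2C, MYB and MYC fell, and FLT3 rose. Against olaparib MEF2C and MYC fell, 2 of 9 (24.2% of genes called, 11.9% lower). The 5 calls against LAA became 3 without LAA replicate 1 or without LAA+olaparib replicate 1. 2 of them were lost when 1 library was left out: HOXA10 (log2 -0.25) without LAA replicate 1 or LAA+olaparib replicate 1 (-0.22 and -0.21, edgeR adjusted p = 0.09 and 0.0816), and MEF2C (log2 -0.21) without replicate 1 or 3 of LAA or of LAA+olaparib (-0.20 to -0.14, edgeR adjusted p = 0.0956 to 0.196). The MEF2C call was also lost with total-count scaling, in 1 fit of all 24 libraries and with limma on FPKM at either pseudocount (-0.20 to -0.18, adjusted p = 0.0763 to 0.127). Against olaparib, MEF2C (log2 -0.27) lost its call without LAA+olaparib replicate 3 (-0.20, edgeR adjusted p = 0.0527).

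The interaction, the log2 change with both compounds less the sum of the changes with each alone, was called for FLT3 alone among the members. It was 0.89 ± 0.20 in MOLM-13 (edgeR adjusted p = 0.021; 2.04% of genes called, 0.712% positive) and 0.69 ± 0.21 in THP-1 (edgeR adjusted p = 0.0373; 7.57% of genes called, 4.04% positive). So in both lines FLT3 was higher with both compounds than the sum of the single effects. In MOLM-13 the LAA and LAA+olaparib libraries already lay within the THP-1 range of FLT3, 5.84 to 11.8 CPM. The line-check sum there was 5.33 and 4.09 CPM, against 31.8 in vehicle, and its part was not tested. The interaction call in MOLM-13 was lost without vehicle replicate 1 or 2, olaparib replicate 2 or LAA+olaparib replicate 1 or 3 (0.83 to 0.89, edgeR adjusted p = 0.0536 to 0.0627). In THP-1 it was lost without any vehicle replicate, LAA replicate 2 or 3, olaparib replicate 1 or 3, or LAA+olaparib replicate 1 or 2 (0.58 to 0.74, edgeR adjusted p = 0.0536 to 0.102).

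Among other genes of the program, 10 KMT2A fusion targets fell with LAA+olaparib in THP-1. The difference between the lines in this effect was called for 0 of 14 by edgeR, with 3 at an unadjusted p under 0.05, and for 0 of 12 by DESeq2. Of the 14 tested in THP-1 the other 4 were not called; the median log2 change was -0.20, against -0.01 over all genes, of which 13.5% were called lower. BCL2, an inhibitor of apoptosis, was at 113 CPM in vehicle and 73.0 after treatment, a 1.54-fold fall (edgeR adjusted p = 4.45e-07), BAHCC1 1.43-fold (edgeR adjusted p = 2.04e-06) and JMJD1C 1.30-fold (edgeR adjusted p = 0.000862). In MOLM-13 1 of 13 was called, RUNX2, which fell 1.38-fold (edgeR adjusted p = 0.00254), where 7.35% of all genes were called lower. The median log2 change there was -0.02, against 0.00 over all genes. Of the 17 genes of the fusion's machinery, 4 fell in THP-1, where 13.5% of all genes did, among them AFF1 1.40-fold (edgeR adjusted p = 2.57e-05), a subunit of the super elongation complex, and CBX8 1.37-fold (edgeR adjusted p = 0.000805). MLLT3, the fusion partner, fell 1.39-fold in MOLM-13 (edgeR adjusted p = 0.0175), the 1 called of 17, where 7.35% of all genes were lower. The difference between the lines was called for 0 of 17 by edgeR, with 2 at an unadjusted p under 0.05, and for 1 by DESeq2. Among 6 other HOXA genes tested in THP-1, HOXA13 fell 1.30-fold (edgeR adjusted p = 0.00127). HOXA3 was also called lower, at 0.615 CPM in vehicle and 0.0931 after LAA+olaparib. It was too low after LAA+olaparib to pass the filter on low counts through those libraries, so its call is not read as a test. Over all genes 13.5% were called lower there.

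With LAA+olaparib 3 of 8 genes of the MYC network fell in MOLM-13, where 7.35% of all genes fell, and 3 of 8 in THP-1, where 13.5% did. MXD1 rose in THP-1 (1.39-fold, edgeR adjusted p = 0.00979). MXD4, MXI1 and MXD3, which with MAX act against MYC, were the 3 in each line: MXD4 fell 1.70-fold in THP-1 (edgeR adjusted p = 4.77e-09) and 1.42-fold in MOLM-13 (edgeR adjusted p = 0.000343), and MXI1 1.56-fold in THP-1 (edgeR adjusted p = 1.61e-06) and 1.55-fold in MOLM-13 (edgeR adjusted p = 0.000219). Of 20 MYC targets, 9 rose and 2 fell in THP-1, where 27.1% of all genes were called, with a median of 0.19 against -0.01 over all genes. SRM, which makes spermidine, rose 1.49-fold (edgeR adjusted p = 2.8e-06) and MRTO4, a ribosome assembly factor, 1.39-fold (edgeR adjusted p = 0.000112), while TFRC, the transferrin receptor, fell 1.54-fold (edgeR adjusted p = 2.19e-08) and LDHA, lactate dehydrogenase, 1.38-fold (edgeR adjusted p = 1.17e-07). In MOLM-13 CAD rose and LDHA and FBL fell, 3 of 20, where 12.2% of all genes were called.

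SOCS2 of the FLT3 signalling list and CCND2 of the CDK6 partners fell in MOLM-13 as FLT3 did, with LAA and with LAA+olaparib. SOCS2, a STAT5-induced feedback inhibitor, fell 3.43-fold with LAA (edgeR adjusted p = 3.04e-07) and 3.40-fold with LAA+olaparib (edgeR adjusted p = 3.77e-08), from 22.2 CPM in vehicle; THP-1 vehicle was at 3.69. CCND2, a D-type cyclin, fell 4.56-fold and 6.55-fold, from 6.81 CPM (edgeR adjusted p = 9.59e-05 and 1.21e-06); THP-1 vehicle was at 0.557. The line-check sum was lower in the same libraries, and its part was not tested. Of 13 FLT3 signalling genes tested, 5 fell with LAA+olaparib in MOLM-13 and 3 in THP-1, where 7.35% and 13.5% of all genes fell. CSF1R, the receptor of macrophage colony-stimulating factor, fell 1.54-fold and 1.38-fold (edgeR adjusted p = 7.44e-05 and 2.38e-05), and DUSP6, a phosphatase of ERK, 1.37-fold and 1.33-fold (edgeR adjusted p = 0.00473 and 0.0029). Of 9 CDK6 partners and inhibitors tested, 1 rose and 4 fell with LAA+olaparib in THP-1, and 3 fell in MOLM-13. Over all genes 27.1% and 12.2% were called, 13.5% and 7.35% lower. CDKN1A, which encodes the inhibitor p21, rose 1.45-fold in THP-1 (edgeR adjusted p = 1.7e-07) and fell 1.39-fold in MOLM-13 (edgeR adjusted p = 8.09e-05). CDKN2D fell 1.60-fold in THP-1 and 1.73-fold in MOLM-13 (edgeR adjusted p = 0.00199 and 0.0132). CDKN2C fell 1.18-fold in THP-1 (edgeR adjusted p = 0.00291). RB1 fell 1.25-fold in THP-1 (edgeR adjusted p = 0.0107) and MEF2D 1.30-fold (edgeR adjusted p = 2.95e-06).

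**Figure D4:**
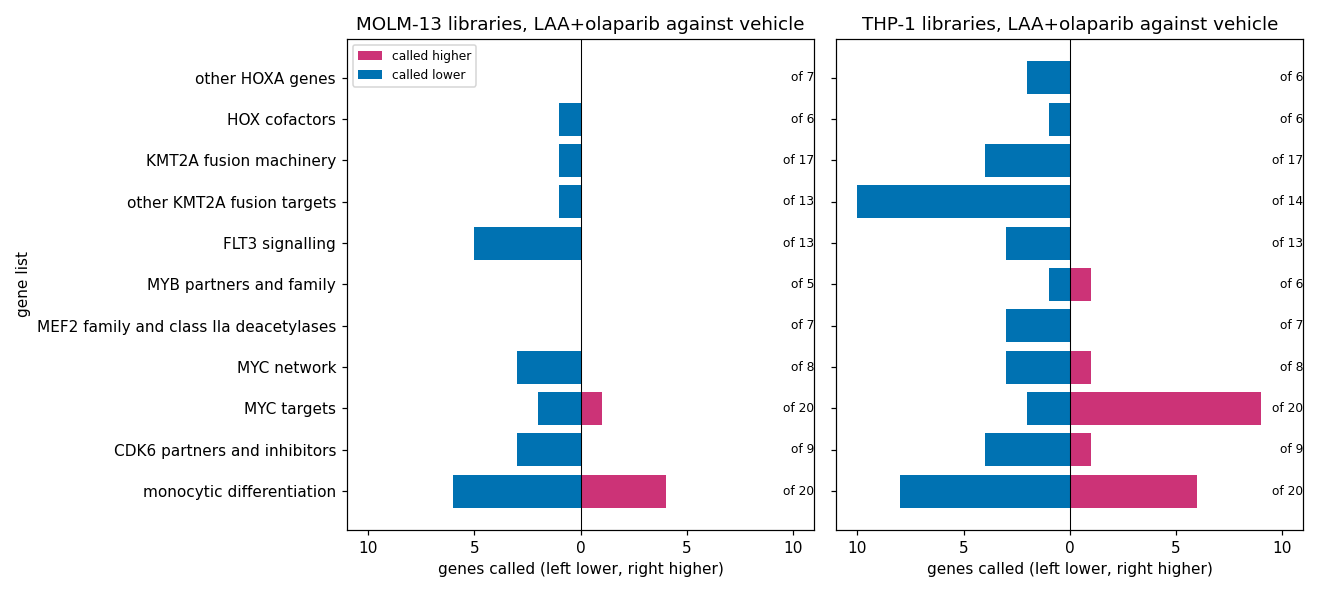
Number of genes of each list called higher (right) or lower (left) with LAA+olaparib against vehicle in each line, with the number tested at the right. 10 of 14 other KMT2A fusion targets fell in THP-1, where 13.5% of all genes did. In MOLM-13 5 of 13 FLT3 signalling genes fell, where 7.35% of all genes did. HOXA3 is counted as lower in THP-1, but its call is not read as a test.

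Markers of monocytic maturation moved both ways with LAA+olaparib in THP-1, 6 of 20 higher and 8 lower, where 27.1% of all genes were called, 13.5% lower. LYZ, lysozyme, rose 2.68-fold (edgeR adjusted p = 7.88e-15) and CEBPB, a factor of monocytic differentiation, 2.01-fold (edgeR adjusted p = 8.75e-10), while S100A9 fell 2.62-fold (edgeR adjusted p = 7.42e-14) and ITGAM 1.98-fold (edgeR adjusted p = 1.53e-09). In MOLM-13, 4 rose and 6 fell, where 12.2% of all genes were called; S100A9 fell 3.07-fold (edgeR adjusted p = 1.67e-09), whereas LAA alone raised it 1.93-fold (edgeR adjusted p = 9.36e-06).

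For 8 members the genes with the most similar pattern were found over the 8 group means of log2 CPM, by the root mean square distance after each gene was centred on its own mean, among 11338 protein-coding genes or, for MEIS1, 11339. FLT3 was nearest to EPB41L3 (distance 0.15) and JAG1 (0.20), against a spread of its own of 0.79. EPB41L3 was at 21.0 CPM in MOLM-13 vehicle, 15.9 after olaparib, 3.96 after LAA and 4.99 in THP-1 vehicle. MEIS1, with a spread of 1.56, was nearest to PRSS57 (0.38) and SOCS2 (0.71). The line-check sum was likewise highest in MOLM-13 vehicle, lower after olaparib and lower still after LAA. Its part in the likeness of these genes to FLT3 and MEIS1 was not tested. MYC was nearest to STX2 and PNPLA8 (0.04 each), with a spread of 0.16, and MEF2C to SKIDA1 (0.01), with a spread of 0.11.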

How the data were processed

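Per the labels' protocols, polyadenylated RNA was made into libraries by an unstranded kit. HISAT2, SAMtools and DESeq2 served with build hg38, per the submitters' processing notes. Which counting tool, versions and annotation were used is not given in the sources used here. Of the tables deposited, 1 holds the authors' raw counts per gene and library and 1 their FPKM values, that is, counts per gene length and library size. Symbols, identifiers and gene models are those of the tables.

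Each line was fitted over its 12 libraries, and the lines were compared in a fit of all 24, with edgeR 4.0.16 in R 4.3.3 (filterByExpr with a minimum count of 10, TMM scaling, quasi-likelihood F test). A call is a Benjamini-Hochberg adjusted p under 0.05 over all genes tested. Fold changes in the text are from these fits unless called a ratio of means. The procedure was tested on counts simulated from the THP-1 libraries, with changes only in well-counted genes. That does not cover changes in MEIS1 or HOXA7, the MOLM-13 fit or the fit of both lines. No replicate pair agreed within sampling noise. Same-numbered libraries did not deviate together, so no block was used. Alternatives were DESeq2 1.42.0, limma 3.58.1 on log2(FPKM + 1) and log2(FPKM + 0.1), other scalings, no filter, a replicate block and each library left out. Promoters were read from RefSeq windows (GRCh38.p14), with chromosome 8 left out.

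The members and lists were chosen with earlier results of these data known. All 10 members are named; from each list up to 3 called genes per direction with the smallest adjusted p against vehicle (2 between the lines) could be named, and for likeness the 2 nearest genes with a mean log2 CPM of at least 1. EMD, MTAP and SLC26A5, and genes named to complete a small count, were chosen after their values were seen. Depth limits MEIS1 in THP-1 and in the MOLM-13 libraries with LAA or LAA+olaparib, and HOXA7 in both lines.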

Additional observations from a re-analysis of the deposited data

Results flagged for a closer look

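The effect of LAA on FLT3 differed between the lines by 1.74 log2 units (THP-1 minus MOLM-13, edgeR adjusted p = 1.06e-05), from a test of the difference itself over 3 libraries per group. The effect of LAA+olaparib differed by 2.11 for FLT3 (edgeR adjusted p = 4.07e-08). For MEIS1 the fit gave 4.20, which is not read as a test: the gene passed the filter on low counts through the MOLM-13 libraries alone and had 0 to 9 counts in each THP-1 library. Its adjusted p was 0.0217 with edgeR, lost when any of 5 libraries was left out (0.0517 to 0.226), and DESeq2 gave it no adjusted p. In all 3 cases the gene was lower in every treated MOLM-13 library than in every MOLM-13 vehicle library, and the summed level of the genes that mark the MOLM-13 libraries was lower there too, at 5.33 and 4.09 CPM against 31.8 in vehicle. The part of that shift in these differences was not tested.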

How the results depend on the processing

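The 33 calls on members were recomputed under 758 alternatives in all; 0 changed direction and 80 lost the call. FLT3 with LAA and with LAA+olaparib against vehicle in MOLM-13, and FLT3 between the vehicle groups, kept their calls under every alternative run. So did MYC, HOXA10 and MEF2C with LAA+olaparib against vehicle in THP-1. The MEIS1 calls against vehicle in MOLM-13 and between the vehicle groups also stayed, but they are not read as tests. With no filter on low counts the number of members called was 1 for olaparib against vehicle in MOLM-13 (0 in the text), 2 for the MOLM-13 interaction (1), 0 for the THP-1 interaction (1) and 0 between the lines in LAA+olaparib (2). With DESeq2 it was 4 for LAA+olaparib against olaparib in MOLM-13 (2), 2 for the THP-1 interaction (1) and 1 for the line difference in the LAA+olaparib effect (2), where MEIS1 had no adjusted p. With limma on log2(FPKM + 1) it was 1 for LAA+olaparib against olaparib in MOLM-13 and 2 for the line difference in the LAA effect (1). With limma on log2(FPKM + 0.1) it was 0 for the MOLM-13 interaction, 1 for LAA+olaparib against olaparib in THP-1 (2), 1 between the lines in LAA+olaparib and 2 for the line difference in the LAA effect. In 1 fit of all 24 libraries it was 4 for LAA+olaparib against olaparib in MOLM-13. The cause was not tested.

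With 1 library left out, the members called were 2 to 5 for LAA+olaparib against vehicle in MOLM-13, 2 to 3 for LAA against vehicle and for LAA+olaparib against olaparib there, and 0 to 2 for the interaction. In THP-1 they were 3 to 4 for LAA+olaparib against vehicle, 3 to 5 against LAA, 1 to 2 against olaparib and 0 to 1 for the interaction. Between the lines they were 0 to 1 in LAA, 0 to 3 in LAA+olaparib and 1 to 2 for the LAA+olaparib effect. In every other comparison the count did not move.

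With the replicate number as a block, 5 members were called for LAA+olaparib against vehicle in MOLM-13 and 4 in THP-1, as without it, and CDK6 was added for LAA+olaparib against olaparib in MOLM-13, which made 3. Over all genes, calls for LAA+olaparib against vehicle went from 1972 to 2015 in MOLM-13 and from 4423 to 4249 in THP-1. Of 18 same-numbered pairs in each line, 0 had a correlation of deviations over 0.1 (medians -0.00064 and 0.0032). These correlations cannot show whether same-numbered libraries came from shared cultures, which the labels do not say.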
